A study of Mus musculus and Homo sapiens with 30 samples.

Results

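Serine, one-carbon, asparagine and proline synthesis was followed through 10 mouse genes (Phgdh, Psat1, Psph, Shmt2, Mthfd2, Mthfd1l, Aldh1l2, Asns, Pycr1 and Aldh18a1) in E0771 and NMuMG cells, and through 6 human genes (PHGDH, PSAT1, PSPH, SHMT2, MTHFD2 and ASNS) in SkBr3 cells. The genes were chosen by their place in these pathways and found by symbol in the mouse table, 10 of 56980 gene IDs, and by Ensembl ID in the human table, 6 of 61552. Earlier results of these data were known when the genes and the related lists were chosen, so counts of genes called are descriptions. All 10 and all 6 passed the filter on low counts. Poly(A) RNA was sequenced in 30 libraries, with 3 libraries per medium in E0771 and NMuMG and 4 in SkBr3. E0771 is a mouse mammary cancer line, SkBr3 a human breast cancer line with amplified ERBB2, and NMuMG a line derived from normal mouse mammary gland, although the labels list all 3 lines as breast cancer. Cells grew for 36 h and then received their treatment for 16 h. The control groups received standard growth medium. The lean and obese groups received a mixture of 50% growth medium and 50% secretome, the material released by inguinal (subcutaneous) adipocytes of lean or obese origin. All lines grew in DMEM with 10% FBS. The labels give 4.5 g/L glucose and 10 µg/ml insulin for the NMuMG medium and state neither for E0771 or SkBr3. Only the lean and obese groups were matched for the share of secretome, because the control medium held none. The labels do not give the strain, diet or number of the adipocyte donors, nor whether replicates were separate cultures, so the p-values measure the spread between these libraries, which may be technical.

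Serine is made from the glycolytic intermediate 3-phosphoglycerate by phosphoglycerate dehydrogenase (Phgdh), phosphoserine aminotransferase (Psat1) and phosphoserine phosphatase (Psph). In mitochondria, Shmt2 splits serine into glycine and a one-carbon unit carried on folate, which Mthfd2 oxidises and Mthfd1l releases as formate for export to the cytosol, where formate feeds purine and thymidylate synthesis. Aldh1l2 instead burns the mitochondrial one-carbon unit to carbon dioxide and yields NADPH. Asns makes asparagine from aspartate and glutamine, while Aldh18a1 and Pycr1 carry out the first and last steps from glutamate to proline in mitochondria. Many of these genes are textbook targets of Atf4, the transcription factor of the amino acid and integrated stress responses.

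RefSeq promoter windows (GRCm38.p6, 250 bases before to 50 after the annotated start) were found for 9 of the 10 mouse genes. They were searched on both strands for 3 motifs: the C/EBP-ATF element TGATGNAA, at which Atf4 binds with a C/EBP partner, the E-box CACGTG, bound by Myc and related factors, and the antioxidant response core TGACNNNGC, bound by Nrf2. No match of 1 motif overlapped a match of another in these genes. TGATGNAA was found in 2 of the 9 genes, Asns and Pycr1, against 3.97% of 32851 promoter windows. CACGTG was found in 1 gene, Aldh18a1, against 7.15% of windows, and TGACNNNGC in 3 genes, Phgdh, Psph and Asns, against 12.4%. The stretches below are shown because they carry these matches upstream of genes whose levels are followed in the results. All lie on the minus strand, read 5′ to 3′, and capitals mark the motif, which for Phgdh is the reverse complement.
Asns, chr6:7693210-7693258: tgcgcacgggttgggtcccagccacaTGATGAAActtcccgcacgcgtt
Pycr1, chr11:120643818-120643877: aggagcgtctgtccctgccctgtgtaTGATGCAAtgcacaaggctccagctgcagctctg
Aldh18a1, chr19:40588491-40588548: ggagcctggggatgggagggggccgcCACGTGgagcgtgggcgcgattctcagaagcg
Phgdh, chr3:98339988-98340048: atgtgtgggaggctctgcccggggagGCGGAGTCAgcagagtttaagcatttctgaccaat
The Asns match lies 23 bases before the start, the Pycr1 match 103, the Aldh18a1 match 59 and the Phgdh match 53. A match is a description of the letters in the window and was not tested for binding.

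Total counts ran from 22929035 to 31094119 in E0771, from 23966897 to 29686456 in NMuMG and from 18479433 to 29195499 in SkBr3, and replicates of each group differed by more than counting noise. Levels are given as CPM, the usual scaling of counts to a common library total. Each library total, over the genes that passed the filter, was first multiplied by its TMM factor. A gene was called changed at an adjusted p under 0.05. Of the 7 epithelial markers, Krt8 stood at 235 ± 6.23 (SD, n = 3) to 255 ± 4.97 CPM over the E0771 media, while Krt19 had no count and Epcam, Cdh1, Krt18, Krt7 and Cldn4 were at mean levels of 0.231 CPM or less. In NMuMG the same list summed to between 6850 and 8134 CPM in every library. Adipocyte markers were near the floor in both mouse lines, with sums over 9 genes of at most 1.61 CPM in E0771 and 3.69 CPM in NMuMG, and Lep had no count in any mouse library. The SkBr3 markers were not analysed here.

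In E0771 the whole set was lower in the lean secretome. All 10 of 10 genes were called lower with lean than with obese secretome, where 26.9% of 13813 tested genes were called lower, and all 10 were called lower than in control medium, where 29.0% were. The median log2 fold change of the 10 genes was -0.51 against obese secretome and -0.49 against control medium, beside 0.00 and -0.01 over all tested genes. The 3 lean libraries lay below all 3 obese and all 3 control libraries for every one of the 10 genes, as they did for 30.2% and 31.5% of all tested genes. Together the 10 genes made up 0.340% ± 0.0112 (SD, n = 3) of the E0771 counts in control medium, 0.250% ± 0.00160 with lean and 0.338% ± 0.00973 with obese secretome. In libraries of whole cultures, fewer cells with high expression and less RNA per cell cannot be told apart. Of the 4 fibroblast markers, 3 were tested in E0771 and all 3 were lower with lean than with obese secretome. Their sum with the untested Col1a2, which was at 0.263 CPM or less, was 331 to 370.4 CPM with lean, 643 to 868 CPM with obese secretome and 875 to 983 CPM in control medium. Pecam1, the 1 of 2 endothelial markers tested, was also called lower, and the endothelial sum was 2.04 to 2.94 CPM with lean, 3.27 to 5.63 CPM with obese secretome and 3.51 to 4.46 CPM in control medium. The part of these markers in the result was not tested.

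**Figure D1:**
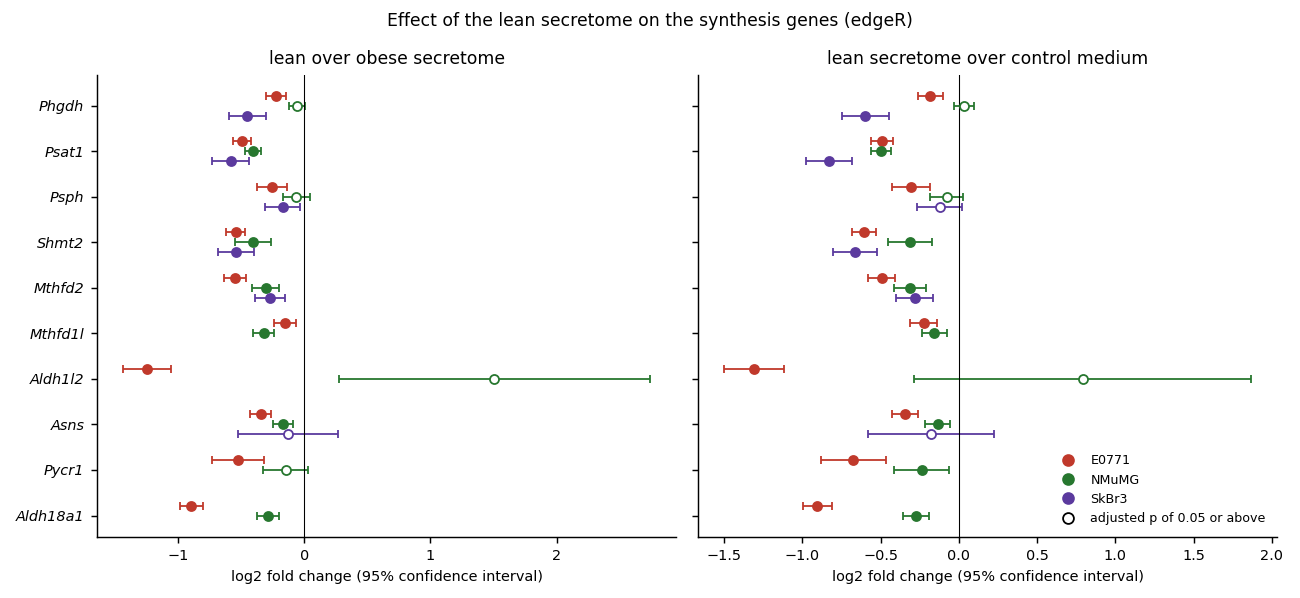
Log2 fold change of the lean secretome (horizontal axis, with 95% confidence interval) for each gene and cell line, against obese secretome on the left and against control medium on the right. Filled points passed the edgeR test, and all 10 red E0771 points lie left of 0 in both panels, from -1.24 to -0.15 on the left.

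Within serine synthesis the middle enzyme moved most. Psat1, which transfers the amino group from glutamate, stood at 654, 679 and 678 CPM in E0771 control libraries, at 474, 483 and 472 CPM with lean and at 657, 693 and 663 CPM with obese secretome. The lean libraries were well clear of the others, and Psat1 fell by 0.49 ± 0.03 (SE) on the log2 scale against obese secretome (edgeR quasi-likelihood test with Benjamini-Hochberg adjustment, adjusted p = 4.07e-11). Phgdh, the first enzyme of the route, stood at 657, 692 and 728 CPM in control medium, 595, 620.4 and 615 CPM with lean and 695, 729 and 714 CPM with obese secretome. Its groups did not overlap but lay closer together, and it fell by 0.22 ± 0.04 on the log2 scale (adjusted p = 2.33e-05). Psph, which releases free serine, stood at 74.0, 85.4 and 84.5 CPM in control medium, 63.4, 63.1 and 70.7 CPM with lean and 74.9, 80.0 and 80.5 CPM with obese secretome. It fell by 0.26 ± 0.06 against obese and by 0.31 ± 0.06 against control medium, where Phgdh fell by 0.18 ± 0.04.

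The mitochondrial one-carbon genes spanned the whole range of the set in E0771 against obese secretome. Aldh1l2, the NADPH-yielding formyl-folate dehydrogenase, moved farthest of the 10 genes. It stood at 148, 163 and 146 CPM in control medium, at 66.0, 62.2 and 56.1 CPM with lean and at 128, 159 and 149.5 CPM with obese secretome. The highest lean library, at 66.0 CPM, was far below the lowest obese library. The fall was 1.24 ± 0.09 (SE) on the log2 scale against obese secretome, a change of -57.8% (edgeR, Benjamini-Hochberg adjusted p = 3.39e-07), and 1.31 ± 0.09 against control medium. Shmt2, which feeds the route from serine, stood at 728, 740.3 and 764 CPM in control medium, 488, 504 and 477 CPM with lean and 682, 734 and 726 CPM with obese secretome. Mthfd2, the dehydrogenase and cyclohydrolase of the next step, stood at 155, 160.1 and 159 CPM in control medium, 111, 109 and 117 CPM with lean and 163, 169.8 and 160.4 CPM with obese secretome. Both fell by similar amounts, Shmt2 by 0.54 ± 0.04 (adjusted p = 2.52e-11) and Mthfd2 by 0.55 ± 0.04 (adjusted p = 1.10e-10), against obese secretome in the edgeR fit. Mthfd1l, the formate-releasing synthetase, moved least of the 10 genes against obese secretome. It stood at 210.3, 224 and 227 CPM in control medium, 193, 187 and 185 CPM with lean and 214, 215 and 200.1 CPM with obese secretome, and fell by 0.15 ± 0.04 on the log2 scale (adjusted p = 0.00282).

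Asns lay between these extremes. It stood at 444, 479 and 497 CPM in E0771 control libraries, 373, 369 and 376 CPM with lean and 460.3, 477 and 483 CPM with obese secretome. The lean libraries lay close together below all others, and Asns fell by 0.35 ± 0.04 (SE) on the log2 scale against obese secretome (edgeR, Benjamini-Hochberg adjusted p = 8.58e-08).

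The proline route moved at both of its ends. Aldh18a1, the pyrroline-5-carboxylate synthase that commits glutamate to proline, stood at 199, 209 and 208 CPM in control medium, 115, 112 and 102 CPM with lean and 202, 206 and 203 CPM with obese secretome. Lean libraries were far below the others, and Aldh18a1 fell by 0.89 ± 0.04 (SE) on the log2 scale against obese and by 0.91 ± 0.04 against control medium (edgeR, Benjamini-Hochberg adjusted p = 2.19e-13 and 9.45e-14). Pycr1, the mitochondrial reductase of the last step, was expressed at far lower levels. It stood at 11.7, 13.4 and 13.1 CPM in control medium, 8.11, 8.59 and 7.22 CPM with lean and 11.5, 10.3 and 12.5 CPM with obese secretome, from 226 to 357 counts per library. It fell by 0.53 ± 0.10 against obese and by 0.68 ± 0.10 against control medium. All of these E0771 calls against obese secretome and control medium also passed in each of the 14 alternatives run.

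**Figure D2:**
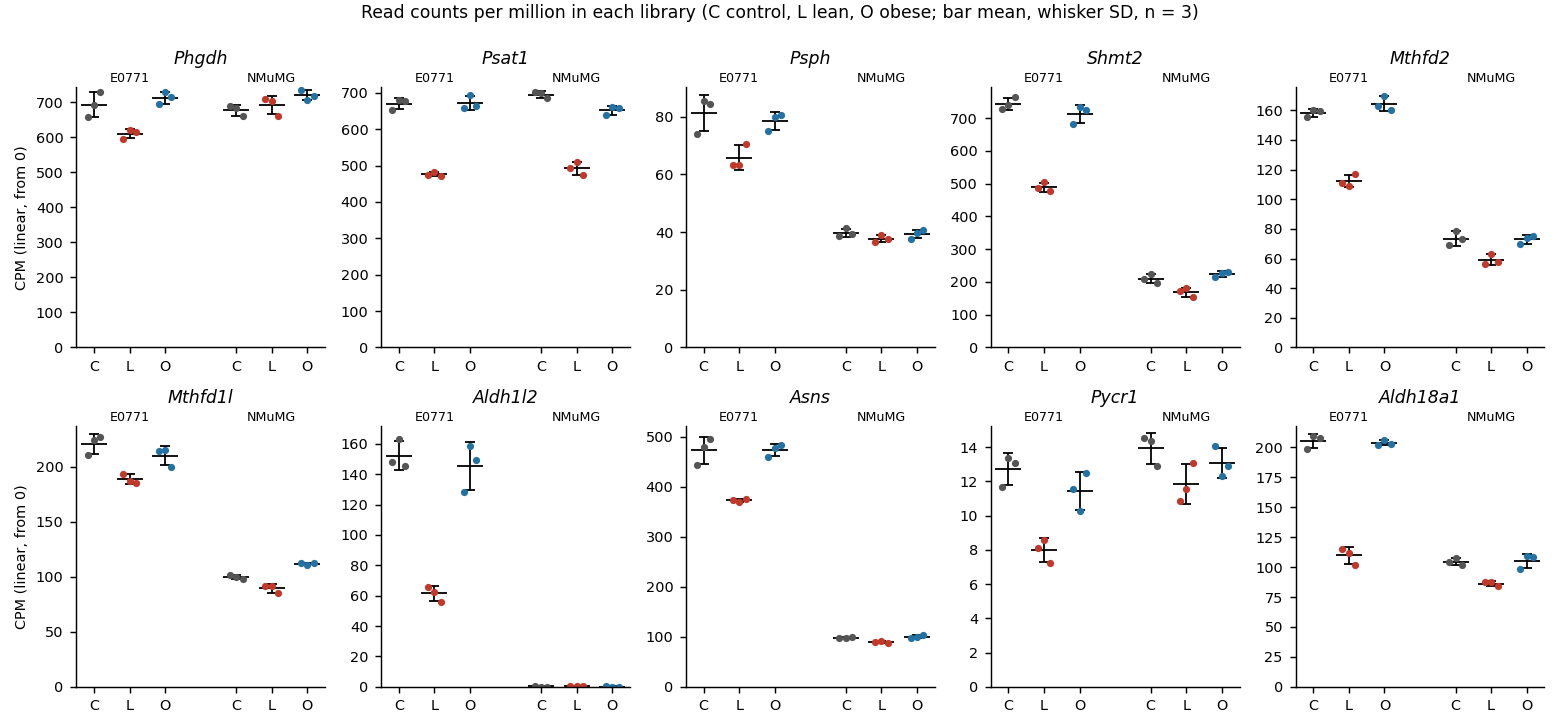
CPM in each library on a linear axis from 0 for the 10 mouse genes, with E0771 on the left and NMuMG on the right of each panel. Points are libraries, bars the mean and whiskers the SD of 3, and the E0771 lean points lie below all other E0771 points in every panel, for example at 56.1 to 66.0 CPM for Aldh1l2.

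In NMuMG the set moved less evenly. With lean against obese secretome, 6 of 10 genes were called lower, where 17.4% of 15014 tested genes were: Psat1, Shmt2, Mthfd1l, Mthfd2, Aldh18a1 and Asns. Against control medium 7 of 10 were called lower, where 19.1% were, the same 6 and Pycr1. The median log2 fold change of the 10 genes was -0.23 against obese secretome and -0.20 against control medium. The 10 genes made up 0.202% ± 0.00394 (SD, n = 3) of NMuMG counts in control medium, 0.173% ± 0.00585 with lean and 0.202% ± 0.00305 with obese secretome. Epithelial markers moved the other way, 5 of 7 being higher with lean than with obese secretome, where 17.6% of all genes were, and their sum was 7914 to 8134 CPM with lean, 6850 to 7224 CPM with obese secretome and 7177 to 7612 CPM in control medium. The adipocyte sum was 2.97 to 3.69 CPM with lean, 1.12 to 1.86 CPM with obese secretome and 1.74 to 2.12 CPM in control medium, and Cidec was the 1 adipocyte marker called higher. The fibroblast marker Col1a1, 1 of 2 tested, was called lower, and the fibroblast sum was 3.15 to 3.30 CPM with lean, 3.80 to 4.72 CPM with obese secretome and 5.54 to 5.98 CPM in control medium. The part of these markers in the result was not tested.

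Psat1 gave the clearest NMuMG response. It stood at 702, 698 and 685 CPM in control medium, 493, 510.3 and 474 CPM with lean and 638, 660.5 and 658 CPM with obese secretome. The lean libraries were lowest without overlap, and Psat1 fell by 0.41 ± 0.03 (SE) on the log2 scale against obese and by 0.50 ± 0.03 against control medium (edgeR, Benjamini-Hochberg adjusted p = 4.53e-12 and 1.27e-14). Phgdh, one step earlier, stood at 688, 684 and 659 CPM in control medium, 710.1, 704 and 662 CPM with lean and 736, 707 and 717 CPM with obese secretome. Its lean range overlapped that of control medium, and the log2 fold change against obese secretome was -0.06 (95% interval -0.12 to 0.01, adjusted p = 0.179). Psph was likewise not called, with a log2 fold change of -0.06 (-0.17 to 0.04). Among the one-carbon genes, Shmt2 stood at 209, 225 and 197 CPM in control medium, 173, 180.2 and 153 CPM with lean and 214, 228 and 230.4 CPM with obese secretome, and fell by 0.41 ± 0.06 against obese secretome. Mthfd1l stood at 102, 99.7 and 97.6 CPM in control medium, 91.5, 91.7 and 84.9 CPM with lean and 112, 111 and 112 CPM with obese secretome. It fell by 0.32 ± 0.04 and Mthfd2 by 0.31 ± 0.05 against obese secretome, with lean libraries lowest for both. In the proline and asparagine arms, Aldh18a1 fell by 0.29 ± 0.04 and Asns by 0.17 ± 0.04 against obese secretome.

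Pycr1 and Aldh1l2 were the uncertain members in NMuMG. Pycr1 stood at 14.5, 14.4 and 12.9 CPM in control medium, 10.8, 11.6 and 13.1 CPM with lean and 14.0, 12.3 and 12.9 CPM with obese secretome, so the lean range overlapped both others. The log2 fold change was -0.24 against control medium (edgeR, Benjamini-Hochberg adjusted p = 0.0262) and -0.15 against obese secretome (adjusted p = 0.210). The call against control medium was lost without control replicate 1 (adjusted p = 0.108), control replicate 2 (0.0869), lean replicate 1 (0.151) or lean replicate 2 (0.0686), and with DESeq2 (0.0593). Aldh1l2, at 152 CPM in untreated E0771, had only 2 to 13 counts in any NMuMG library. Its lean libraries held 8, 13 and 11 counts and its obese libraries 6, 2 and 2, and the difference did not pass the test (adjusted p = 0.0513). It passed in only 3 of the 13 alternatives that gave a value: without control replicate 1 (0.0422), lean replicate 1 (0.0460) or obese replicate 1 (0.0204). Only control replicate 1 and lean replicates 2 and 3 reached 10 counts, the minimum of the filter. Aldh1l2 was thus tested in NMuMG mostly through the lean group, where it was highest.

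The effects in E0771 and NMuMG were then compared directly, as the E0771 effect minus the NMuMG effect in a fit of all 18 mouse libraries. For lean against obese secretome the effects differed for 7 of 10 genes, where 34.2% of 16529 genes differed, and for lean against control medium also for 7 of 10, where 34.5% did. Aldh18a1 differed most clearly. Its fall was larger in E0771 by 0.59 ± 0.06 (SE) on the log2 scale against obese secretome (edgeR, Benjamini-Hochberg adjusted p = 6.44e-10) and by 0.61 ± 0.06 against control medium, and both calls passed in 22 of 22 alternatives. Mthfd2, Asns, Phgdh and Pycr1 also had the lower effect in E0771 against obese secretome, with differences of -0.23, -0.16, -0.15 and -0.37. Mthfd1l went the other way and fell farther in NMuMG, with a difference of 0.18 ± 0.06 (adjusted p = 0.00961). For Psat1 the difference was -0.07 (95% interval -0.17 to 0.02) and for Shmt2 -0.12 (-0.26 to 0.02) against obese secretome, and neither passed. Against control medium the genes called were Phgdh, Psph, Shmt2, Aldh1l2, Asns, Pycr1 and Aldh18a1, all with the lower effect in E0771. The NMuMG effects of Phgdh and Aldh1l2 in that contrast were 0.03 and 0.79 and were not called. The Aldh1l2 differences, -2.74 and -2.07, rest on the few NMuMG counts given above.

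Several of these differences no longer passed when a single library was left out, though none of those named below changed direction. Against obese secretome, Phgdh was not called without E0771 lean replicate 1, E0771 obese replicate 2, NMuMG lean replicate 1, NMuMG lean replicate 2 or NMuMG obese replicate 2 (adjusted p of at most 0.0691), nor Mthfd2 without NMuMG lean replicate 2 (0.0517), nor Mthfd1l without NMuMG lean replicate 3 (0.111). Asns was not called without E0771 lean replicate 2, E0771 obese replicate 3, NMuMG lean replicate 2 or NMuMG obese replicate 1 (at most 0.0714). Pycr1 was not called without E0771 lean replicate 3, E0771 obese replicates 1 or 3, NMuMG lean replicate 3 or NMuMG obese replicates 2 or 3 (at most 0.134). Against control medium, Psph (adjusted p = 0.0480) passed in 11 of 22 alternatives. It was lost without E0771 control replicates 2 or 3, lean replicates 1 or 2, or obese replicates 2 or 3, and without NMuMG control replicates 1 or 3, lean replicate 2, or obese replicates 2 or 3. Pycr1 was lost there without E0771 lean replicate 3 or NMuMG control replicate 3, and Aldh1l2 without NMuMG control replicates 2 or 3 or lean replicates 2 or 3. These p-values are edgeR quasi-likelihood values with Benjamini-Hochberg adjustment.

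The lines already differed before treatment. All 10 of 10 genes were called different between untreated E0771 and NMuMG, where 80.5% of genes were, and line and base medium cannot be told apart in this comparison. Asns was 4.42-fold, Shmt2 3.25-fold, Mthfd1l 2.03-fold, Mthfd2 1.98-fold, Psph 1.88-fold and Aldh18a1 1.81-fold higher in E0771. Aldh1l2 was at 152 ± 9.65 CPM (SD, n = 3) in untreated E0771 and at 0.219 ± 0.188 CPM in untreated NMuMG. Psat1, Phgdh and Pycr1 were lower in E0771, by 0.18, 0.09 and 0.26 on the log2 scale, and the last 2 calls were lost without E0771 control replicate 1 (adjusted p = 0.234 for Phgdh and 0.0854 for Pycr1) or NMuMG control replicate 1 (0.0825 and 0.0504). Phgdh was also lost without NMuMG control replicate 2 (0.0657).

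Levels per kilobase of exon, with the length taken over all annotated exons of a gene, placed Phgdh first in both untreated mouse lines. This order depends on that length, which may differ from the length of the transcripts expressed. In CPM, Shmt2 (728.4 to 764.1) stood above Phgdh (657.5 to 728.1) in untreated E0771. In untreated NMuMG the CPM of Psat1 (685 to 702) overlapped that of Phgdh (659 to 688). In E0771 Phgdh was at 279 ± 14.2 CPM per kb (SD, n = 3), followed by Shmt2 at 239 ± 5.85, Asns at 173 ± 9.79 and Psat1 at 158 ± 3.36. Then came Aldh18a1 at 50.4 and Mthfd1l at 49.7, whose libraries overlapped, and Mthfd2 at 45.4. Aldh1l2 at 20.3 and Psph at 18.8 overlapped as well, and Pycr1 was lowest at 3.23 CPM per kb. In NMuMG the order of levels began with Phgdh at 272, Psat1 at 163, Shmt2 at 67.6 and Asns at 36.0 CPM per kb, and ended with Pycr1 at 3.54 and Aldh1l2 at 0.0292.

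In SkBr3 the falls were led by PSAT1, SHMT2 and PHGDH. With lean against obese secretome, 5 of 6 genes were called lower, where 23.1% of 14874 tested genes were, and against control medium 4 of 6, where 25.1% were. For 5 of 6 genes, all but ASNS, the lean libraries lay below all obese libraries, as for 18.8% of all genes. The median log2 fold change of the 6 genes was -0.36 against obese secretome and -0.44 against control medium. PSAT1 stood at 81.2, 75.3, 75.7 and 76.0 CPM in control medium, 46.1, 37.9, 49.7 and 40.4 CPM with lean and 62.2, 68.0, 69.9 and 59.8 CPM with obese secretome. The lean libraries were lowest without overlap, and PSAT1 fell by 0.58 ± 0.07 (SE) on the log2 scale against obese and by 0.83 ± 0.07 against control medium (edgeR, Benjamini-Hochberg adjusted p = 6.89e-06 and 8.05e-08). SHMT2 stood at 171, 177, 183 and 180.0 CPM in control medium, 110.4, 101, 133 and 105 CPM with lean and 154, 168, 167 and 164 CPM with obese secretome. PHGDH stood at 24.9, 23.3, 26.2 and 26.1 CPM in control medium, 17.7, 15.9, 17.2 and 15.6 CPM with lean and 25.6, 21.4, 21.1 and 22.8 CPM with obese secretome. For both genes no lean library reached the other groups, and against obese secretome SHMT2 fell by 0.54 ± 0.07 and PHGDH by 0.45 ± 0.07. MTHFD2 stood at 209, 210.2, 213 and 201 CPM in control medium, 176, 161, 196 and 153 CPM with lean and 208, 202, 216 and 199.9 CPM with obese secretome, and fell by 0.27 ± 0.06 (adjusted p = 0.000744).

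PSPH and ASNS were the weakest of the human genes. PSPH stood at 17.0, 16.1, 14.9 and 16.4 CPM in control medium, 15.3, 14.5, 14.0 and 15.4 CPM with lean and 16.7, 15.8, 16.7 and 17.4 CPM with obese secretome. Its fall of 0.17 ± 0.07 (SE) against obese secretome passed narrowly (edgeR, Benjamini-Hochberg adjusted p = 0.0452), and against control medium the log2 fold change was -0.12 (adjusted p = 0.143). The PSPH call held in only 5 of 17 alternatives. It was lost without control replicates 2 or 4, lean replicates 1, 2 or 3, or obese replicates 1, 3 or 4 (adjusted p of at most 0.131), and under 4 other settings. PSPH also has near-identical pseudogene copies, so the counting of its reads is uncertain. ASNS had only 33 to 90 counts per library. It stood at 3.17, 2.52, 1.81 and 3.10 CPM in control medium, 2.29, 2.43, 2.12 and 2.53 CPM with lean and 1.85, 2.67, 3.53 and 2.24 CPM with obese secretome, so that all groups overlapped. The log2 fold change against obese secretome was -0.13 (95% interval -0.53 to 0.26), which at this depth covers the ASNS falls seen in both mouse lines.

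**Figure D3:**
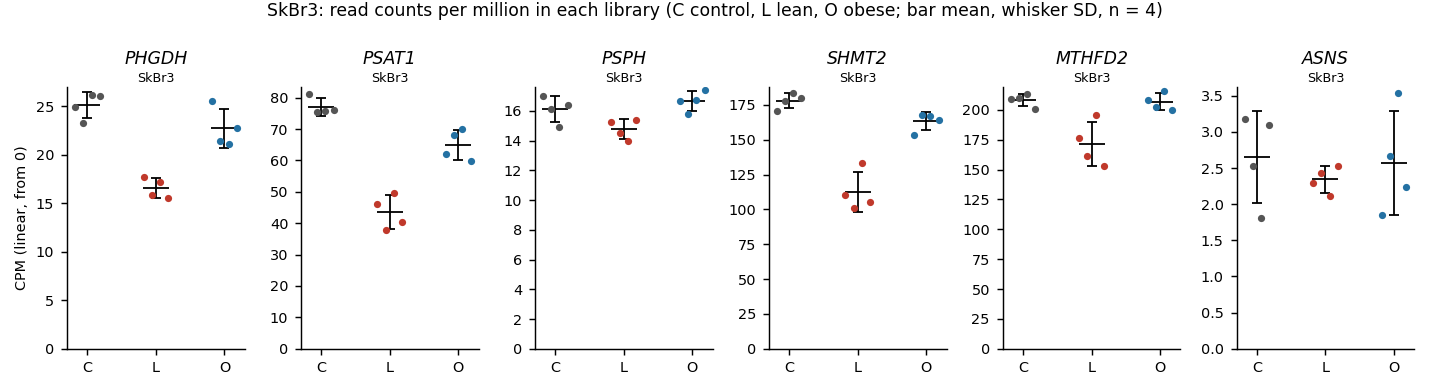
CPM in each SkBr3 library on linear axes from 0 for the 6 human genes, in control, lean and obese medium. Points are libraries, bars the mean and whiskers the SD of 4, and the lean points are lowest without overlap for PHGDH, PSAT1, SHMT2 and MTHFD2, whereas the groups overlap for ASNS.

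Few of these genes were called between obese secretome and control medium. In E0771 0 of 10 genes were called by edgeR, where 2.61% were called, with 0 of 10 at an unadjusted p under 0.05 (15.4% of all genes) and 0 with DESeq2. Their log2 fold changes ran from -0.15 for Pycr1 to 0.06 for Mthfd2. In NMuMG 1 of 10 was called, Mthfd1l, which was higher by 0.17 ± 0.04 (SE) on the log2 scale (Benjamini-Hochberg adjusted p = 0.00727), where 2.34% of genes were called higher. The call was lost without control replicate 3 (0.0508). At an unadjusted p under 0.05 there were 3 of 10 NMuMG genes (16.6% of all genes): Mthfd1l, Phgdh at 0.09 (adjusted p = 0.113) with all obese libraries above all control libraries, and Psat1 at -0.09 (adjusted p = 0.0926) with all below. For Mthfd1l the E0771 effect minus the NMuMG effect was -0.23 (adjusted p = 0.0252), the 1 of 10 such differences called, where 1.69% of genes were. This difference was lost without E0771 control replicates 2 or 3, E0771 obese replicate 3, NMuMG control replicates 2 or 3, or NMuMG obese replicates 1 or 3 (at most 0.120). In SkBr3 edgeR called 0 of 6, where 1.16% were called, with 2 of 6 at an unadjusted p under 0.05 (13.7% of all genes) and 1 with DESeq2. The gene nearest to a call was PSAT1, whose log2 fold change was -0.25 (95% interval -0.39 to -0.10, adjusted p = 0.0911), and which passed in 6 of 17 alternatives. For 2 of 6 genes, PSAT1 and SHMT2, all 4 obese libraries lay below all 4 control libraries, as for 6.06% of all genes. SHMT2 had a log2 fold change of -0.12 and was not called by edgeR (adjusted p = 0.422). Leaving out a lean library, which is in the fit but not in this contrast, also gave calls, 1 without lean replicate 2 and 2 without lean replicate 3.

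Paralogs of the mitochondrial enzymes, singled out after their values were seen, moved apart from the set in E0771. Shmt1, the cytosolic partner of Shmt2, was at 15.4 ± 0.366 CPM per kb (SD, n = 3) in control medium, 19.6 ± 0.483 with lean and 15.9 ± 0.286 with obese secretome, and rose by 0.31 ± 0.05 (SE) on the log2 scale against obese secretome (edgeR, Benjamini-Hochberg adjusted p = 5.60e-06). Mthfd1, the cytosolic trifunctional enzyme, rose by 0.15 ± 0.04. Pycrl (also called Pycr3), the cytosolic reductase, rose by 0.52 ± 0.06, from 36.2 ± 0.771 CPM per kb with obese to 51.8 ± 3.87 with lean secretome. Mthfd2l, the close relative of Mthfd2, had a log2 fold change of 0.10 and was not called. In NMuMG, Shmt1 fell by 0.15 and Mthfd2l by 0.36 against obese secretome, while Mthfd1 and Pycrl were not called, with values of -0.07 and 0.09. The E0771 effect was higher than the NMuMG effect by 0.47 for Shmt1, 0.24 for Mthfd1, 0.48 for Mthfd2l and 0.44 for Pycrl.

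**Figure D4:**
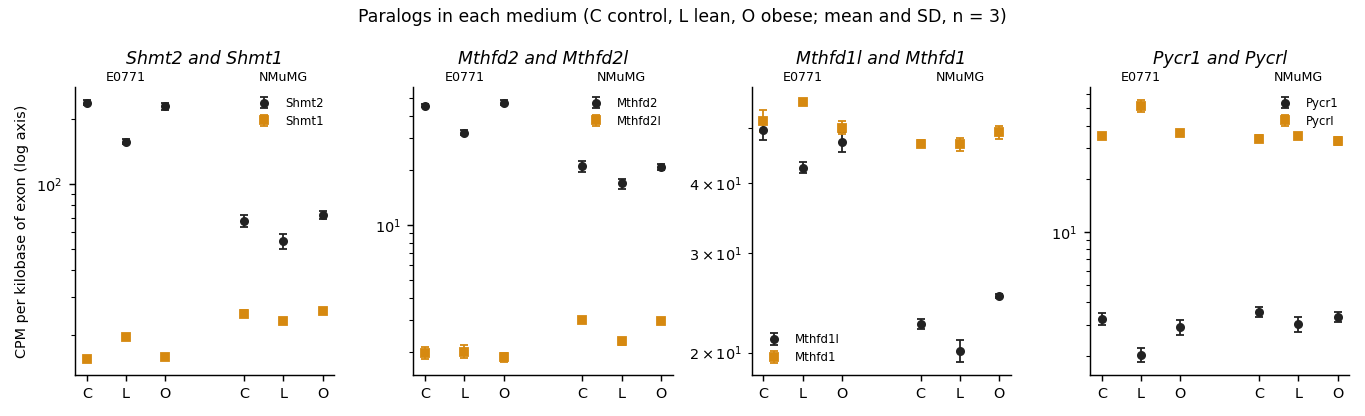
Mean level and SD of 3 libraries, as CPM per kilobase of exon on a log axis, for each mitochondrial gene (black) and a paralog (orange) in the 3 media. In E0771 the black points dip in the lean medium while Shmt1, Mthfd1 and Pycrl rise, Shmt1 from 15.9 with obese to 19.6 CPM per kb with lean secretome.

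Of 17 tested genes of the wider folate cycle and glycine cleavage in E0771, 7 were higher and 3 lower with lean than with obese secretome. Mtrr, which reactivates methionine synthase, rose by 0.56, while Sfxn3, of the family of mitochondrial serine carriers, fell by 0.53. All 12 of 12 purine synthesis genes, whose pathway takes up formyl groups from folate, were higher, with a median log2 fold change of 0.41. They included Atic by 0.63, Prps1 by 0.56 and Adsl by 0.50. Of the 8 other proline and ornithine genes, 5 were higher, among them P4ha2, a collagen prolyl hydroxylase subunit, by 0.58, and 1 was lower, Aldh4a1, of proline breakdown, by 0.48. Of 13 aspartate, glutamine and alanine genes, 4 were higher and 5 lower: Aspg and Gpt2, an asparaginase and the mitochondrial alanine aminotransferase, each fell by 0.90, and the glutaminase Gls2 rose by 0.85. Of 5 tested methionine cycle genes 3 were higher and 2 lower, Mtap, which salvages methionine, rising by 0.56. For each of these E0771 lists, the background shares were 25.8% of genes called higher and 26.9% lower.

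In NMuMG each of the same lists except the methionine genes was called in both directions. With lean against obese secretome, 1 of 12 purine synthesis genes was called higher and 2 lower, with a median of -0.02, beside 17.6% of all genes called higher and 17.4% lower. The largest of these was Impdh2, the main inosine monophosphate dehydrogenase, which fell by 0.24. Of 19 folate and glycine genes 2 were higher and 6 lower, of 7 methionine genes 0 and 3, of 12 aspartate and glutamine genes 4 and 2, and of 8 proline and ornithine genes 1 and 3. The share called lower was thus above that of all genes for the folate, methionine and proline lists. Without obese replicate 2, 5 purine and 2 proline genes were called in all, and without obese replicate 3, 5 folate genes. The difference between the lines was called for 12 of 12 purine genes, each with the higher effect in E0771.

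Of the 12 tested regulatory factors in E0771, 6 were lower and 3 higher with lean than with obese secretome, beside 26.9% and 25.8% of all genes. Atf4 fell by 0.70 ± 0.04 (SE) on the log2 scale (edgeR, Benjamini-Hochberg adjusted p = 4.63e-13), Trib3, an Atf4 target and feedback inhibitor, by 0.62 ± 0.05 and Cebpb by 0.49 ± 0.05. In NMuMG 4 of 13 were lower and 3 higher, beside 17.4% and 17.6% of all genes. The 3 with the largest changes at a mean log2 CPM of at least 2 were Trib3, Ddit3 and Myc, which rose by 0.56, 0.45 and 0.34. Ddit3 matched 2 gene IDs, and its value covers only the first of them. Atf4, which lies outside that rule and is named as the factor of the background given above, fell by 0.27 ± 0.04 in NMuMG. Its E0771 effect was lower than its NMuMG effect by 0.41 on the log2 scale. Trib3 therefore stood on opposite sides of 0 in the 2 lines, and whether the factors set the levels of the synthesis genes was not tested.

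**Figure D5:**
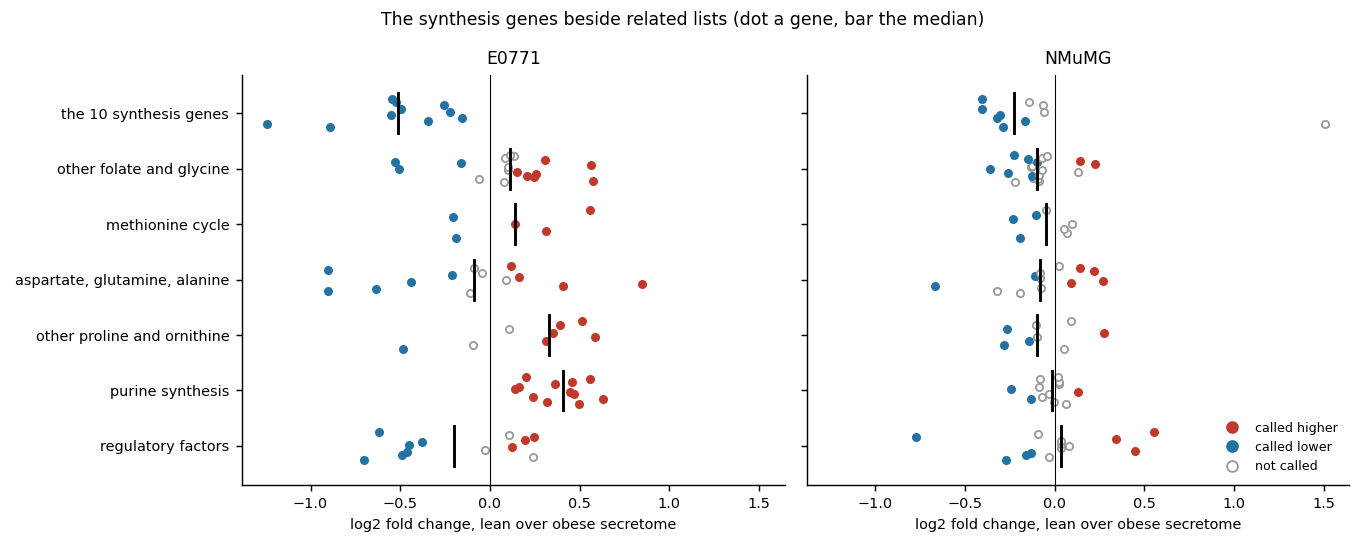
Log2 fold change of lean over obese secretome (horizontal axis) for every tested gene of 7 lists in E0771 (left) and NMuMG (right), with a dot per gene coloured by its call and a bar at the median. In E0771 the 10 synthesis genes lie left of 0 with a median of -0.51 and the 12 purine genes right of 0 with a median of 0.41, and in NMuMG the medians are -0.23 and -0.02.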

How the data were processed

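Counts were used as the authors deposited them, whole numbers without normalization listed by Ensembl ID, in 1 table of 18 mouse and 1 of 12 human libraries. Reads of 150 bp were processed with cutadapt 1.16, STAR 2.7.9a and featureCounts 1.6.3, per the submitters' processing notes, which name the mouse build GRCm39. The human build, annotation release and strand setting are not given in the sources used here, and without strand reads from overlapping genes cannot be told apart. Mouse symbols came from GENCODE M21 (GRCm38), which named 52073 of 56980 IDs holding 99.68% of mouse counts and gave exon lengths. No human name table was used, so lists and markers were not run in SkBr3.

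Groups came from the labels. Each line was fitted with its 3 media in edgeR 4.0.16 (R 4.3.3) after filterByExpr (minimum count 10) with TMM factors, a robust quasi-likelihood F test and Benjamini-Hochberg adjustment over all tested genes. A joint fit of 16529 genes tested differences between mouse lines. Scripts were tested on simulated data. Standard errors were derived from the log2 fold change and F. Alternatives were DESeq2 size factors, no filter, DESeq2 1.42.0, 2 groups alone, a replicate block and each library left out. The genes and lists were chosen with earlier results of these data known, so their counts are descriptions. All members are named, and up to 3 called genes per other list by size of change at a mean log2 CPM of at least 2, except for items not reported here. Intervals are 95%, and reads without molecular identifiers are not independent molecules.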

Additional observations from a re-analysis of the deposited data

Results flagged for a closer look

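For PSAT1 in SkBr3 control medium, replicate 1 had the highest level, 81.2 CPM, and stood apart from the other 3 libraries by more than the critical gap for 4 samples. It was the 1 such case among 18 groups examined, where chance gives about 1 in 20.

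The effect of the lean secretome against obese secretome differed between E0771 and NMuMG for 7 of 10 genes by the edgeR interaction test. The E0771 effect minus the NMuMG effect on the log2 scale was -0.59 for Aldh18a1, -2.74 for Aldh1l2, -0.37 for Pycr1, -0.23 for Mthfd2, -0.16 for Asns and -0.15 for Phgdh, and 0.18 for Mthfd1l. Against control medium the difference was -0.61 for Aldh18a1, -2.07 for Aldh1l2, -0.41 for Pycr1, -0.26 for Shmt2, -0.20 for Psph, -0.19 for Phgdh and -0.18 for Asns. For obese secretome against control medium it was -0.23 for Mthfd1l. The Aldh1l2 values depend on 2 to 13 counts per NMuMG library.

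Among the related lists, the lean against obese effect differed between the lines for 12 of 19 folate and glycine genes, 3 of 7 methionine cycle genes, 7 of 13 aspartate, glutamine and alanine genes, 7 of 8 proline and ornithine genes, 12 of 12 purine synthesis genes and 8 of 13 regulatory factors, where 34.2% of all genes differed.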

How the results depend on the processing

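In E0771 the counts of genes called, 10, 10 and 0, were the same under every alternative run. Of 1049 alternative values of single effects that had passed, 984 passed again, 65 did not and 0 changed direction. For obese secretome against control medium in SkBr3, 0 of 6 genes were called, but 1 with no low-count filter, 1 with DESeq2, 2 with the 2 groups alone and 1 with the replicate block. Leaving out a library gave 0 to 2. In NMuMG leaving out a library gave 0 to 1 for the same contrast, 0 without control replicate 3. The number of genes whose effect differed between E0771 and NMuMG was 4 to 7 against obese secretome when a library was left out (4 without NMuMG lean replicate 2), 4 to 8 for lean against control medium (4 without NMuMG control replicate 3) and 0 to 1 for obese against control medium. Of values that had not passed, ASNS in SkBr3 (lean against obese) ranged from -0.25 to 0.061 and turned positive at 0.061 without obese replicate 3. The Psat1 difference between lines against control medium ranged from -0.021 to 0.056 and was -0.021 without NMuMG lean replicate 3.

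For pairs of replicates with the same number, the residual correlations across genes ran from -0.0942 to 0.110 in E0771. In NMuMG they ran from -0.0285 to 0.0250 and in SkBr3 from -0.0452 to 0.0523. Pairs with different numbers gave -0.0906 to 0.109 in E0771, -0.0239 to 0.0254 in NMuMG and -0.102 to 0.0987 in SkBr3. The labels do not say whether replicates with the same number shared a batch, and these ranges do not settle it. With the replicate block, 6 genes differed between the lines against obese secretome, as Pycr1 had an adjusted p of 0.0508, and 10 of 10 were called in E0771, 6 in NMuMG and 5 of 6 in SkBr3 for that contrast. Depth limits Aldh1l2 in NMuMG and ASNS in SkBr3, and the culture, the secretome preparation and the library cannot be told apart as sources of replicate spread.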
